A study of Mus musculus with 8 samples.

Results

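The 34 genes described here encode the contractile apparatus of smooth muscle: its actin and myosin filaments, the proteins that regulate and anchor them, and the ion channels and calcium-handling proteins of the muscle membranes. They were taken as a fixed list, chosen with earlier results of these data known. Each gene was represented by the probe set with the highest mean signal among those annotated to that gene alone, 71 probe sets in all. All 34 were among the 14027 genes tested, out of 18193 genes with a probe set of their own. Expression had been measured on 8 Affymetrix arrays of total RNA from C57BL/6 mice aged 110 days. The 4 genotypes were compared in colon and in small intestine, which the labels give as ileum: wild type (WT), ACKR2-/-, ApcMin/+ and ACKR2-/-ApcMin/+. The ApcMin/+ and ACKR2-/-ApcMin/+ arrays held spontaneous tumours, while the WT and ACKR2-/- arrays held tissue without tumours from mice that carried no ApcMin allele, so tumour status and the ApcMin allele cannot be told apart. ACKR2 (D6) is a scavenging chemokine receptor that takes up inflammatory CC chemokines without signalling through G proteins. RNA of each genotype and tissue was pooled before hybridisation, so each of the 8 groups is 1 array and the spread between animals was not measured. The labels do not say which layers of the gut wall the tissue samples or the tumour samples held.

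The muscle coat of the gut consists of a circular and a longitudinal layer, with a thin muscularis mucosae beneath the mucosa. Smooth muscle shortens when calcium-bound calmodulin activates myosin light chain kinase, phosphorylated myosin pulls on actin filaments, and dense bodies and membrane adhesions carry the force to the intermediate filaments and the matrix. Many of these genes are driven by serum response factor, which binds the CArG box, a short A and T rich element between CC and GG, together with its coactivator myocardin. Pericytes, vascular smooth muscle and contractile fibroblasts express part of the same set.

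Because many of these genes are known targets of serum response factor and most fell together in tumours, the promoters were searched for the CArG box. RefSeq windows of 300 bases on build GRCm38.p6, from 250 bases before to 50 bases after a transcription start, were at hand for 29 of the 34 genes in 36 windows. A box matching the CArG consensus, with 6 A or T bases in the middle and read alike on both strands, lay in 5 of the 36 windows (13.9%), those of Myl9, Fhl1, Dmd and Ldb3. Over all 32851 windows in the table the share was 1.63%. The 4 promoters below are shown because they carry the element, which is in capitals; each reads 5′ to 3′ on the strand of the gene. The box began 161 bases before the start in Myl9 (chr2:156775214-156775513, plus strand), 102 in Fhl1 (chrX:56779433-56779732, plus strand), 98 in Dmd (chrX:82948620-82948919, plus strand) and 109 in Ldb3 (chr14:34588558-34588857, minus strand). A second, overlapping Ldb3 window held the same box.
Myl9: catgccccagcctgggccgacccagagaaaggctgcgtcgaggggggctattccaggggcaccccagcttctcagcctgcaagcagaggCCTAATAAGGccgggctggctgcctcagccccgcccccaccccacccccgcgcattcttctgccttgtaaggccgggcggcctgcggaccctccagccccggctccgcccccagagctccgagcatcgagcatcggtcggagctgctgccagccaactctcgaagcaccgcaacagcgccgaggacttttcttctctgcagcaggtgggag
Fhl1: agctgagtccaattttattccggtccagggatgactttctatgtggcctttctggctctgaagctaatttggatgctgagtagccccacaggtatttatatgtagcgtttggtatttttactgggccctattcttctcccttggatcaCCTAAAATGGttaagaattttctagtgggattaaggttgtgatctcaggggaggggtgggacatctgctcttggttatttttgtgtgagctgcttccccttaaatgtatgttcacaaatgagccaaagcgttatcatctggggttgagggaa
Dmd: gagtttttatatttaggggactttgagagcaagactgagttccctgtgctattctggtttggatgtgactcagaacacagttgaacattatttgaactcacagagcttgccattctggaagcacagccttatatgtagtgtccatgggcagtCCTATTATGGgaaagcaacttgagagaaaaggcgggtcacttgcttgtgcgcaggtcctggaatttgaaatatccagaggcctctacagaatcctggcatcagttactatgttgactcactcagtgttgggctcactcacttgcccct
Ldb3: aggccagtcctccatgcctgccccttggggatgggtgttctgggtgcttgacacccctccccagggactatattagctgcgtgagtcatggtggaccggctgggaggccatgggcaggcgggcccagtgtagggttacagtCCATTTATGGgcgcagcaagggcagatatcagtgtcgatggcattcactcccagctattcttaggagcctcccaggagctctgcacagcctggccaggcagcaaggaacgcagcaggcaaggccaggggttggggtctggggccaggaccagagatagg
These 4 genes did not follow 1 pattern in the tumours: Myl9 and Fhl1 fell in both tissues, Dmd passed the test in colon and not in small intestine, and Ldb3 passed it in neither, with the values given below.

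Signals are MAS5 intensities on a linear scale, and all arrays had been scaled to the same trimmed mean. Array medians ran from 85.2 to 132.7. A signal under 64.1, the floor used here, was treated as not measured, and a difference that involves such a signal is a lower limit. The 8 epithelial markers had summed signals between 95550 and 148560 over the 8 arrays. The 34 muscle genes summed to 272254 in WT and 254235 in ACKR2-/- colon, and to 130922 and 137028 in small intestine. Their sums were 86155 in ApcMin/+ and 36528 in ACKR2-/-ApcMin/+ colon tumours, and 62331 and 31194 in small-intestinal tumours.

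The median deviation of the 34 genes from their own means over the 8 arrays, on the log2 scale, was 1.63 in WT colon, 1.53 in ACKR2-/- colon, 0.62 in WT small intestine and 0.60 in ACKR2-/- small intestine. It was -0.15 in ApcMin/+ colon tumours and -0.56 in ApcMin/+ small-intestinal tumours, and -1.93 and -1.85 in the ACKR2-/-ApcMin/+ tumours of the same tissues. The highest signal was in WT colon for 17 genes and in ACKR2-/- colon for 12, while 5 genes, among them Ldb3 and Actn1, had it elsewhere. The lowest was in ACKR2-/-ApcMin/+ colon tumours for 18 and in ACKR2-/-ApcMin/+ small-intestinal tumours for 15. Signals under the floor occurred 10 times, in 8 genes, 6 of them on the ACKR2-/-ApcMin/+ colon tumour array and 4 on the matching small-intestinal array. RNA came from whole samples, so fewer muscle cells and less RNA of these genes per cell cannot be told apart.

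**Figure D1:**
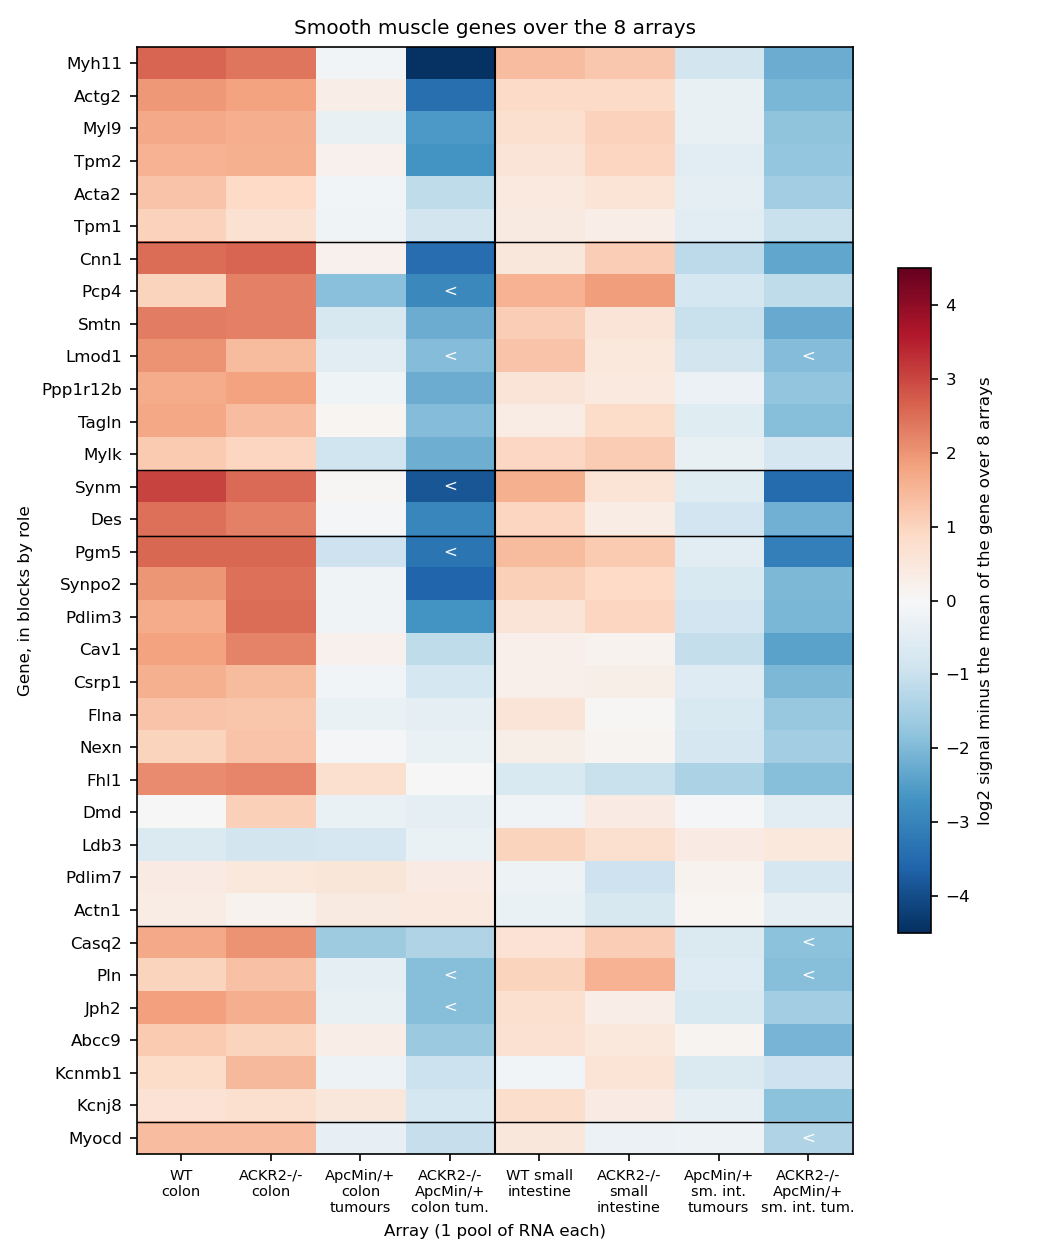
Heat map of the 34 smooth muscle genes (vertical axis, in blocks by role) on the 8 arrays (horizontal axis), coloured by the log2 signal minus the mean of that gene over the 8 arrays, with signals below the floor of 64.1 set to the floor and marked "<". Median deviations fell from 1.63 in WT colon to -1.93 in ACKR2-/-ApcMin/+ colon tumours, and all 10 marked cells are in the ACKR2-/-ApcMin/+ tumour columns.

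Tumours were compared with tissue of the same gut segment and ACKR2 genotype, which gave 2 pairs in colon and 2 in small intestine. Of the 34 genes, 31 were lower in tumours over both tissues in the limma fit across all genes at a Benjamini-Hochberg adjusted p under 0.05, against 11.9% of all genes tested, and 0 were higher, against 13.1%. The median log2 difference of the 34 was -2.23, and that of all genes 0.03. By fold alone, 19 genes were at least 2-fold lower in all 4 pairs, against 0.813% of all genes. In 29 genes both tumour arrays lay below both non-tumour arrays in each tissue, against 8.77%, and 30 were lower in all 4 pairs, against 15.8%. The fit has 6 coefficients for 8 arrays, and its error comes from how far the ACKR2 difference varied between the tissues. With any 1 of the 8 arrays left out, 1 residual degree of freedom remained and limma called 0 of the 34 genes in every comparison given here; at an unadjusted p under 0.05, 30 to 31 were then lower in tumours over both tissues, against 10.9% to 16.4% of all genes. The limma calls over both tissues were lost in those fits for all tested genes alike. Without the filter on low signals limma called 4 of the 34, and 190 of all 18193 genes in either direction. The WT pools differed from all others in having a Y-linked gene below the floor, with values given further on. Without both WT arrays, an alternative added after the data were seen, 29 genes were at least 2-fold lower in the 2 remaining pairs (2.19% of all genes), and without both ACKR2-/-ApcMin/+ arrays 19 were (2.08%).

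All 6 genes of the contractile filaments fell, with a median log2 difference of -2.46. Below, 4 values run in the order WT, ACKR2-/-, ApcMin/+ tumours and ACKR2-/-ApcMin/+ tumours. Myh11, the smooth muscle myosin heavy chain, had signals of 16977, 14454, 2523 and 125 in colon and of 7132, 6320, 1557 and 589 in small intestine. Both tumour arrays were below both tissue arrays in each segment, and the ACKR2-/-ApcMin/+ tumours were the lower of the 2 tumour arrays. The log2 difference over both tissues was -3.81 ± 0.43 (SE; limma adjusted p 0.00409). Within ACKR2-/- colon the tumours were 116-fold lower, against 6.73-fold in the pair with intact ACKR2. Actg2, the enteric smooth muscle actin, had signals of 18839, 17069, 6094 and 468 in colon and of 8899, 9010, 3907 and 1188 in small intestine. Its tumour arrays, too, lay below the tissue arrays of each segment, with a log2 difference of -2.73 ± 0.30 (limma adjusted p 0.00372). Acta2, the smooth muscle actin that pericytes and myofibroblasts also make, kept more of its signal: 29139, 22355, 10963 and 5416 in colon and 16401, 18450, 8821 and 4045 in small intestine, a log2 difference of -1.63 ± 0.14 (limma adjusted p 0.00176). Myl9, the regulatory light chain of myosin, had signals of 21879, 21178, 5348 and 1123 in colon and of 11270, 13768, 5303 and 1915 in small intestine. The tumour arrays again lay below the tissue arrays, by -2.55 ± 0.16 on the log2 scale (limma adjusted p 0.000992). The tropomyosins, which lie along actin and gate its contact with myosin, differed in size: Tpm2 by -2.36 ± 0.26 (limma adjusted p 0.00379) and Tpm1, which other cell types also express, by -1.22 ± 0.11 (limma adjusted p 0.00224).

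**Figure D2:**
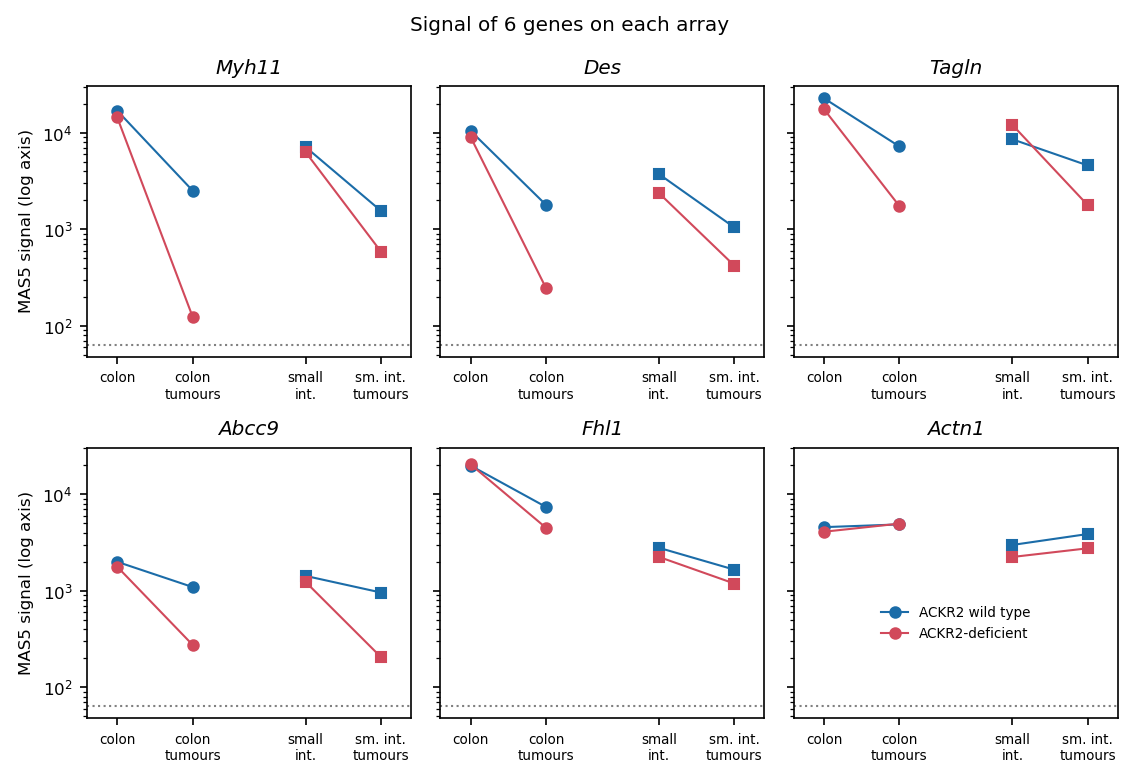
MAS5 signal (vertical axis, log scale) of 6 genes on each of the 8 arrays, with circles for colon and squares for small intestine; lines join tissue to tumours of the same ACKR2 genotype, blue for wild type and red for ACKR2-deficient, and the dotted line is the floor of 64.1. Myh11 dropped to 125 in ACKR2-/-ApcMin/+ colon tumours, while Actn1 stayed between 2245 and 4974 on all arrays.

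All 7 genes that regulate contraction fell, with a median of -2.60. Cnn1, calponin, an inhibitor of the myosin ATPase, had signals of 12141, 13125, 2450 and 199.6 in colon and of 3035, 4538, 930 and 423 in small intestine. The groups did not overlap in either segment, and the log2 difference was -3.37 ± 0.37 (limma adjusted p 0.00377). Smtn, the actin-binding smoothelin, had signals of 4157, 4037, 514 and 179.6 in colon and of 1826, 1274, 422 and 176 in small intestine. Its fall of -3.12 ± 0.14 (limma adjusted p 0.000354) had a smaller error than that of Cnn1. Tagln, the actin-bundling transgelin, had signals of 22806, 17561, 7232 and 1745 in colon and of 8580, 12095, 4596 and 1782 in small intestine. Tumour arrays were below tissue arrays in both segments, by -2.16 ± 0.19 (limma adjusted p 0.00196). Lmod1, leiomodin, which nucleates actin filaments, had signals of 992 and 658 in WT and ACKR2-/- colon and of 604 and 340 in small intestine. It had 174 and 139.6 in ApcMin/+ tumours of colon and small intestine and was below 64.1 in both ACKR2-/-ApcMin/+ tumours, so its fitted difference of -2.60 ± 0.18 (limma adjusted p 0.00134) rests on floored values. Mylk, myosin light chain kinase, fell by 2.09 on the log2 scale (limma adjusted p 0.00172, SE 0.17), from 12279 to 14549 in the 4 tissue arrays to 1406 to 5127 in the tumours. Ppp1r12b, a targeting subunit of the opposing myosin phosphatase, differed by -2.24 ± 0.15 (limma adjusted p 0.00134). Pcp4, a small regulator of calmodulin, had signals of 951, 2303 and 127 and a signal below 64.1 in colon, and 1402, 1743, 271 and 215 in small intestine. Its highest signal in each segment was on the ACKR2-/- tissue array, and the log2 difference between tumours and tissue was -3.36 ± 0.22 (limma adjusted p 0.00125), with 1 floored value.

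Both intermediate filament genes fell. Des, desmin, which links dense bodies through the cell, had signals of 10477, 9044, 1795 and 247 in colon and of 3736, 2376, 1047 and 421 in small intestine. Synm, synemin, which attaches desmin to adhesion sites, had signals of 7448, 5380 and 952 and a signal below 64.1 in colon, and 2780, 1405, 627 and 82.1 in small intestine. In both genes every tumour array lay below every tissue array of its segment. The log2 differences were -3.02 ± 0.25 for Des (limma adjusted p 0.00172) and -3.90 ± 0.19 for Synm (limma adjusted p 0.000502), the latter with 1 floored value.

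Among the 12 genes of dense bodies and adhesions 9 fell, with a median of -1.44, and the remaining 3 had differences near 0. Pgm5, aciculin, an adhesion protein related to phosphoglucomutase, had signals of 3722, 3696 and 330 and a signal below 64.1 in colon, and 1671, 1424, 443 and 74.2 in small intestine. Its log2 difference was -3.88 ± 0.14 (limma adjusted p 0.000247), the smallest adjusted p among the 34 genes. Synpo2, the actin-bundling synaptopodin 2, followed with -3.22 ± 0.32 (limma adjusted p 0.00288), and Pdlim3, a PDZ and LIM protein that binds alpha-actinin, with -2.87 ± 0.23 (limma adjusted p 0.00159). Cav1, the caveolin of membrane pits, which endothelium also expresses, fell by 2.22 on the log2 scale (SE 0.12, limma adjusted p 0.000595). Csrp1, a LIM protein of the actin cytoskeleton, differed by -1.76 ± 0.15, and Flna, filamin A, which crosslinks actin and is widely expressed, by -1.56 ± 0.17. Nexn, nexilin, an actin-binding protein, and Fhl1, a LIM-only protein, both differed by -1.32, with SE 0.20 and 0.11. These 4 passed with limma adjusted p between 0.00186 and 0.00837. Dmd, dystrophin, which ties actin to the membrane, had signals of 472, 972, 384 and 346 in colon and of 419, 599, 452 and 330 in small intestine. Here the ApcMin/+ small-intestinal tumours lay above WT tissue, by 0.11 on the log2 scale, with the probe set used. A second Dmd probe set, above the floor on all 8 arrays, was lower in all 4 pairs and had -0.73 in that pair. With the probe set used, the difference of -0.63 ± 0.17 (limma adjusted p 0.0415) was -0.89 ± 0.24 in colon (limma adjusted p 0.0431). In small intestine it was -0.38 ± 0.24 (limma adjusted p 0.442). Actn1, the widely expressed alpha-actinin 1, had signals of 4575, 4100, 4883 and 4974 in colon and of 2991, 2245, 3882 and 2762 in small intestine, a difference of 0.26 ± 0.12 that did not pass (limma adjusted p 0.172) and that was -0.11 over the mean of its probe sets. Pdlim7 (0.15 ± 0.19, limma adjusted p 0.594), a PDZ and LIM protein, and Ldb3 (-0.12 ± 0.12, limma adjusted p 0.519), a Z-disc protein of striated muscle with a smooth muscle form, did not pass either.

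All 6 genes of channels and calcium handling fell, with a median of -1.97. Abcc9, the sulfonylurea receptor subunit of ATP-sensitive potassium channels, had signals of 2000, 1778, 1096 and 276 in colon and of 1429, 1238, 962 and 206 in small intestine. The drop was steeper in the ACKR2-/-ApcMin/+ tumours of both segments than in the ApcMin/+ tumours, and the difference between tumours and tissue over both tissues was -1.68 ± 0.12 (limma adjusted p 0.00134). Kcnj8, the pore subunit that pairs with Abcc9 in vascular muscle and pericytes, had signals of 545, 580, 501 and 202 in colon and of 606, 452, 264 and 96.4 in small intestine. In colon the ApcMin/+ tumours were close to WT tissue, at a log2 difference of -0.12, so that the colon difference of -0.82 ± 0.25 did not pass (limma adjusted p 0.0628), while that in small intestine, -1.71 ± 0.25, did (limma adjusted p 0.024). Kcnmb1, the beta subunit of the calcium-activated BK potassium channel, had signals of 265, 407, 127 and 75.8 in colon and of 134, 226, 93.7 and 77.2 in small intestine. These are low signals, and the difference of -1.39 ± 0.17 passed over both tissues (limma adjusted p 0.00512) but not in small intestine alone (-1.03 ± 0.24, limma adjusted p 0.0834). Pln, phospholamban, which restrains the calcium pump of the reticulum, had signals of 484 and 604 in WT and ACKR2-/- colon, 485 and 725 in small intestine, 181 and 164 in ApcMin/+ tumours, and signals below 64.1 in both ACKR2-/-ApcMin/+ tumours. Casq2, calsequestrin, a calcium store protein, had signals of 741, 924, 76.6 and 90.0 in colon and of 358, 492 and 145 and a signal below 64.1 in small intestine. Its ACKR2-/-ApcMin/+ colon tumours were not lower than the ApcMin/+ colon tumours, unlike Pln. Jph2, junctophilin 2, which holds reticulum and surface membrane together, differed by -2.25 ± 0.20 between tumours and tissue (limma adjusted p 0.00215).

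Myocd, the coactivator of serum response factor that drives many of these genes, was low on every array. Its signals were 422, 420, 126 and 79.0 in colon and 229, 135 and 138 and below 64.1 in small intestine. In small intestine the ApcMin/+ tumours lay slightly above ACKR2-/- tissue, so the groups overlapped there. The log2 difference was -2.08 ± 0.29 in colon (limma adjusted p 0.00717) and -0.90 ± 0.29 in small intestine, which did not pass (limma adjusted p 0.163). With tissue signals of 135 to 422 and a floor of 64.1, only a limited fall could be measured for this gene.

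In colon 30 of the 34 genes fell, against 12.6% of all genes tested called lower there, 0 rose (11.1%), and 28 were at least 2-fold lower in both pairs (6.13% of all genes). In small intestine 22 fell (1.18% of all genes), 0 rose (2.72%) and 20 were at least 2-fold lower in both pairs (1.13%). The median log2 difference was -2.56 in colon and -1.77 in small intestine. Genes that passed in colon but not in small intestine included Myh11, at -4.80 ± 0.61 in colon (limma adjusted p 0.00572) and -2.81 ± 0.61 in small intestine (limma adjusted p 0.067). Actg2, at -3.41 ± 0.42 and -2.06 ± 0.42, and Cnn1, at -4.17 ± 0.53 and -2.57 ± 0.53, did the same, with limma adjusted p of 0.0593 and 0.0583 in small intestine. The ACKR2 difference of these genes in tumours varied between the segments, which is what the standard error measures. The difference between the 2 tumour effects was itself tested: 0 of the 34 genes passed in limma in either direction (1.44% of all genes were called lower in colon and 0.706% higher), and the smallest adjusted p was 0.0502, for Pgm5 (-1.58 ± 0.27). At an unadjusted p under 0.05, 14 were lower in colon (11.9% of all genes). That count was 16 without either ApcMin/+ tumour array (11.9% of all genes) and 7 without either WT array (7.49% to 7.56%). It was 6 without either ACKR2-/-ApcMin/+ array (8.59%), 1 without ACKR2-/- colon (6.7%) and 2 without ACKR2-/- small intestine (6.58%). The median of that difference was -0.95, against -0.07 for all genes, and it was -0.58 without either the colon or the small-intestinal ACKR2-/-ApcMin/+ array. With quantile normalization 1 gene passed, and 284 of all 14068 genes did in either direction.

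**Figure D3:**
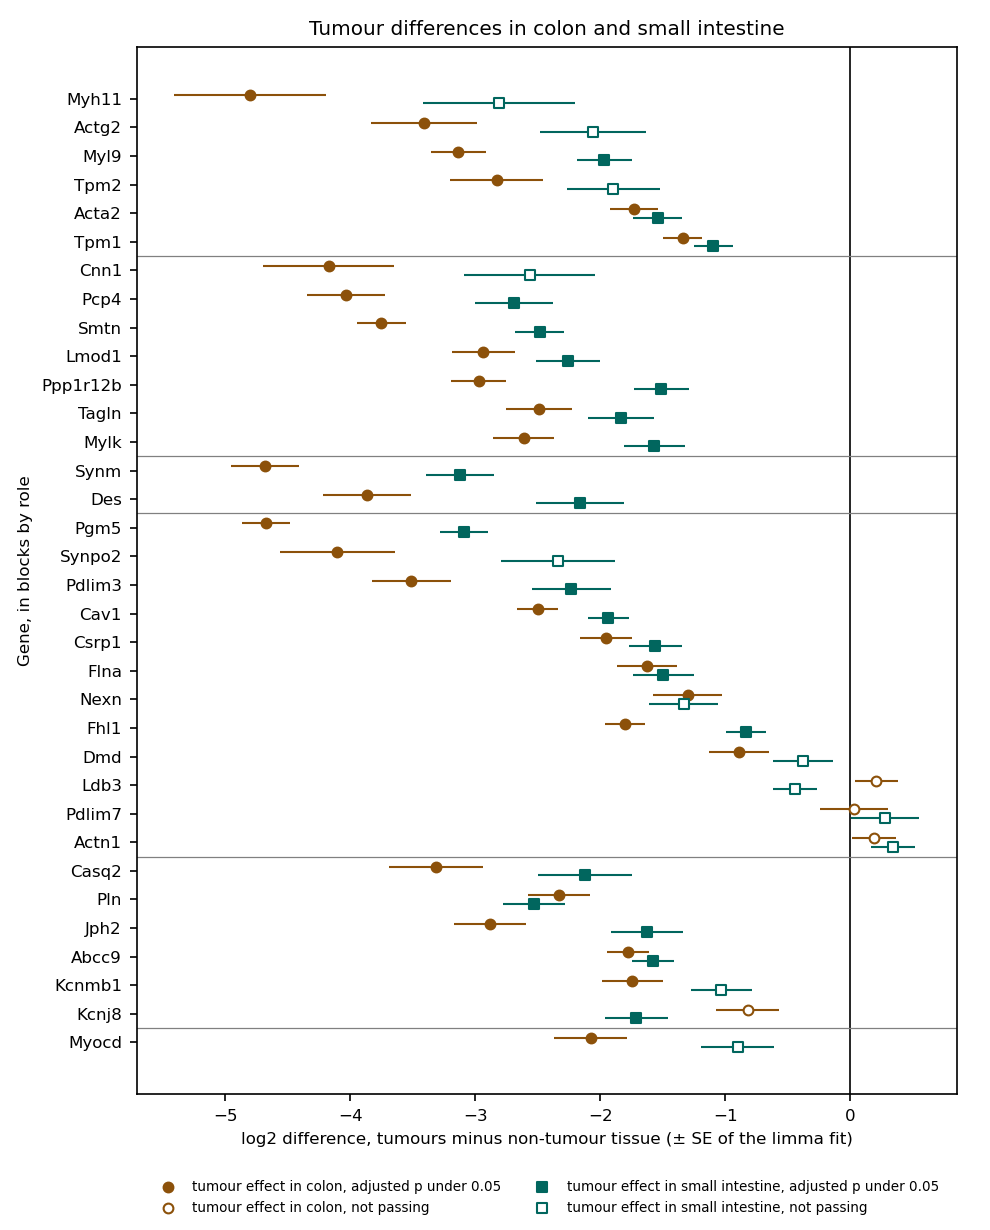
Log2 difference between tumours and non-tumour tissue (horizontal axis, limma estimate with bars of 1 SE) for each of the 34 genes (vertical axis, in blocks by role), with brown circles for colon and green squares for small intestine; filled symbols have an adjusted p under 0.05. Estimates in colon reached -4.80 for Myh11, and Actn1, Pdlim7 and Ldb3 lie near 0 in both segments.

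Between colon and small intestine without tumours most of these genes had the higher signal in colon. In the limma fit 16 of the 34 were higher in colon (12.9% of all genes) and 1 was lower (8.38%), and 12 were at least 2-fold higher in both pairs (7.04%). With any size counted, 29 were higher in colon in both pairs (45.3%) and 2, Ldb3 and Pln, were lower in both (27.2%). By fold, Ldb3 was the 1 gene at least 2-fold lower in both (4.92%). The median log2 difference was 0.98, against 0.11 for all genes. With arrays centred on their medians limma called 8 higher, and 2551 of all 14098 genes in either direction. Fhl1 stood out with 19847 in WT and 20445 in ACKR2-/- colon, and 2793 and 2247 in small intestine. The colon arrays lay far above, by 3.01 ± 0.16 on the log2 scale (limma adjusted p 0.000214). Cav1 was higher in colon by 1.82 ± 0.16 (limma adjusted p 0.00144), Des by 1.71 ± 0.35 (limma adjusted p 0.0217) and Synm by 1.68 ± 0.27 (limma adjusted p 0.00986). The gene that limma called lower in colon was Ldb3, with 638, 567, 590 and 818 in colon and 2019, 1642, 1297 and 1380 in small intestine. Every small-intestinal array lay above every colon array, by 1.60 in tissue without tumours (log2 colon minus small intestine -1.60 ± 0.17, limma adjusted p 0.00281). Pln differed by -0.0055 and -0.26 in the WT and ACKR2-/- pairs. The sign differed between these pairs for Mylk (0.24 and -0.16), Pcp4 (-0.56 and 0.40) and Kcnj8 (-0.15 and 0.36).

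Between colon tumours and small-intestinal tumours the median log2 difference over the 34 genes was 0.10, against 0.07 for all genes. Limma called 3 genes higher in colon tumours (5.75% of all genes), Fhl1 at 2.04 ± 0.16 (adjusted p 0.00149), Cav1 at 1.26 ± 0.16 (adjusted p 0.00699) and Csrp1 at 0.86 (adjusted p 0.0484). It called 3 lower (7.35%), Pcp4 at -1.42 ± 0.31 (adjusted p 0.0361), Mylk at -0.55 and -1.45 in the pairs with and without ACKR2 (adjusted p 0.0478) and Ldb3 at -0.95 ± 0.17 (adjusted p 0.0209). Of the 6 filament genes, Acta2 (0.31 and 0.42) and Tpm1 (0.33 and 0.19) were higher in colon tumours in both pairs, and in the other 4 the pairs had opposite signs. Myh11 was 0.70 higher on the log2 scale in colon than in small-intestinal tumours of ApcMin/+ mice, but its difference was -2.24 between the same tissues of ACKR2-/-ApcMin/+ mice. By fold, 1 gene, Pcp4, was at least 2-fold lower (4.93% of all genes) and 2 were at least 2-fold higher in both pairs (2.77%). Without either ApcMin/+ tumour array, in the 1 remaining pair, these counts were 6 (9.55% of all genes) and 7 (10.5%). Without either ACKR2-/-ApcMin/+ tumour array they were 2 (6.3%) and 3 (4.17%).

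In tissue without tumours the ACKR2-/- and WT arrays did not separate these genes at the threshold. Limma called 0 of the 34 genes lower (0.442% of all genes) and 0 higher (0.128%), with a smallest adjusted p of 0.122, for Dmd. At an unadjusted p under 0.05, 2 were lower, Synm and Lmod1 (14.1% of all genes), and 3 were higher, Dmd, Kcnmb1 and Pcp4 (10.6%). Without any 1 of the 4 arrays of this tissue these counts were 0 and 0. The median log2 difference was -0.03 in colon and -0.14 in small intestine. Estimates ran from -0.73 for Synm to 0.80 for Pcp4, and 0 genes differed 2-fold or more the same way in both tissues (2.19% of all genes were lower and 0.371% higher). In colon alone Pcp4 (1.28) and Dmd (1.04) were at least 2-fold higher in ACKR2-/- tissue (1.98% of all genes). Centring the arrays on their medians moved the median of all genes to 0.435 in this comparison. Limma then called 6 of the 34 higher, with a median of 0.46, and 3803 of all 14098 genes in either direction.

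In tumours the ACKR2-/-ApcMin/+ pools had less signal than the ApcMin/+ pools for 31 of the 34 genes in both tissues, a direction that 31.6% of all genes shared; the 3 others were Actn1, Ldb3 and Casq2. By fold, 19 genes were at least 2-fold lower in both tissues, against 1.32% of all genes. In colon tumours alone the count was 21 (4.87% of all genes) and in small-intestinal tumours 23 (4.59%). The median log2 difference of the 34 was -1.38 in colon and -1.19 in small intestine, and for all genes over both tissues it was -0.03. Limma called 3 of the 34, against 0.0285% of all genes, which is 4 genes in all; 25 of the 34 were lower at an unadjusted p under 0.05 (10.4% of all genes). The 3 were Synm, Pgm5 and Abcc9, and the fourth gene was Xist. Abcc9, with 1096 against 276 in colon tumours and 962 against 206 in small-intestinal tumours, had log2 differences of -1.99 and -2.22. Both ACKR2-/-ApcMin/+ arrays lay far below their ApcMin/+ partners, by -2.11 ± 0.17 (limma adjusted p 0.0469). Synm, at 952 against a signal below 64.1 and at 627 against 82.1, differed by at least 14.8-fold in colon and by 7.63-fold in small intestine (-3.41 ± 0.27, limma adjusted p 0.0469). Pgm5, at 330 against a signal below 64.1 and at 443 against 74.2, differed by at least 5.14-fold and by 5.97-fold (-2.47 ± 0.19, limma adjusted p 0.0469). The estimates for Synm and Pgm5 each rest on 1 floored value. These calls depended on the settings. With no floor 6 genes passed (36 of all 14008), and with a filter on all arrays 10 of the 26 testable ones (80 of all 10659). With a higher floor, quantile normalization, median centring, the mean of probe sets or no filter, 0 passed, where 0 to 2 of all genes did. The calls were also lost with any 1 array left out.

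By role, 5 of the 6 filament genes, both intermediate filament genes and 5 of the 7 regulators were at least 2-fold lower in ACKR2-/-ApcMin/+ than in ApcMin/+ tumours of both tissues, as were 4 of the 12 dense body genes and 3 of the 6 channel genes. The size differed between the segments. Myh11 was 20.2-fold lower in colon tumours and 2.64-fold lower in small-intestinal tumours, and its estimate of -2.87 ± 0.61 did not pass (limma adjusted p 0.165). Actg2 had log2 differences of -3.70 and -1.72, Cnn1 of -3.62 and -1.14, Synpo2 of -3.39 and -1.35, and Tpm2 of -2.90 and -1.24, in colon and small intestine. None of these 4 passed either, with limma adjusted p between 0.134 and 0.172. Genes whose segments differed little included Cav1 (-1.32 and -1.33, limma adjusted p 0.0926), Kcnj8 (-1.31 and -1.45, limma adjusted p 0.154) and Acta2 (-1.02 and -1.12, limma adjusted p 0.154). Actn1 (0.03 and -0.49), Ldb3 (0.47 and 0.09) and Dmd (-0.15 and -0.46) were within 2-fold in both segments. The ACKR2 difference in tumours minus that in tissue without tumours, a contrast added after the data were seen, had a median of -1.20 over the 34 genes and of -0.02 over all genes. Limma called 0 of the 34 in it, against 0.00713% of all genes, with a smallest adjusted p of 0.502. At an unadjusted p under 0.05, 23 were lower (4.19% of all genes). That count was 10 without WT or ACKR2-/- colon (1.61% and 1.6% of all genes) and 12 without WT or ACKR2-/- small intestine (2.4% and 2.41%). It was 16 to 19 without 1 of the tumour arrays (5.31% to 5.5%).

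**Figure D4:**
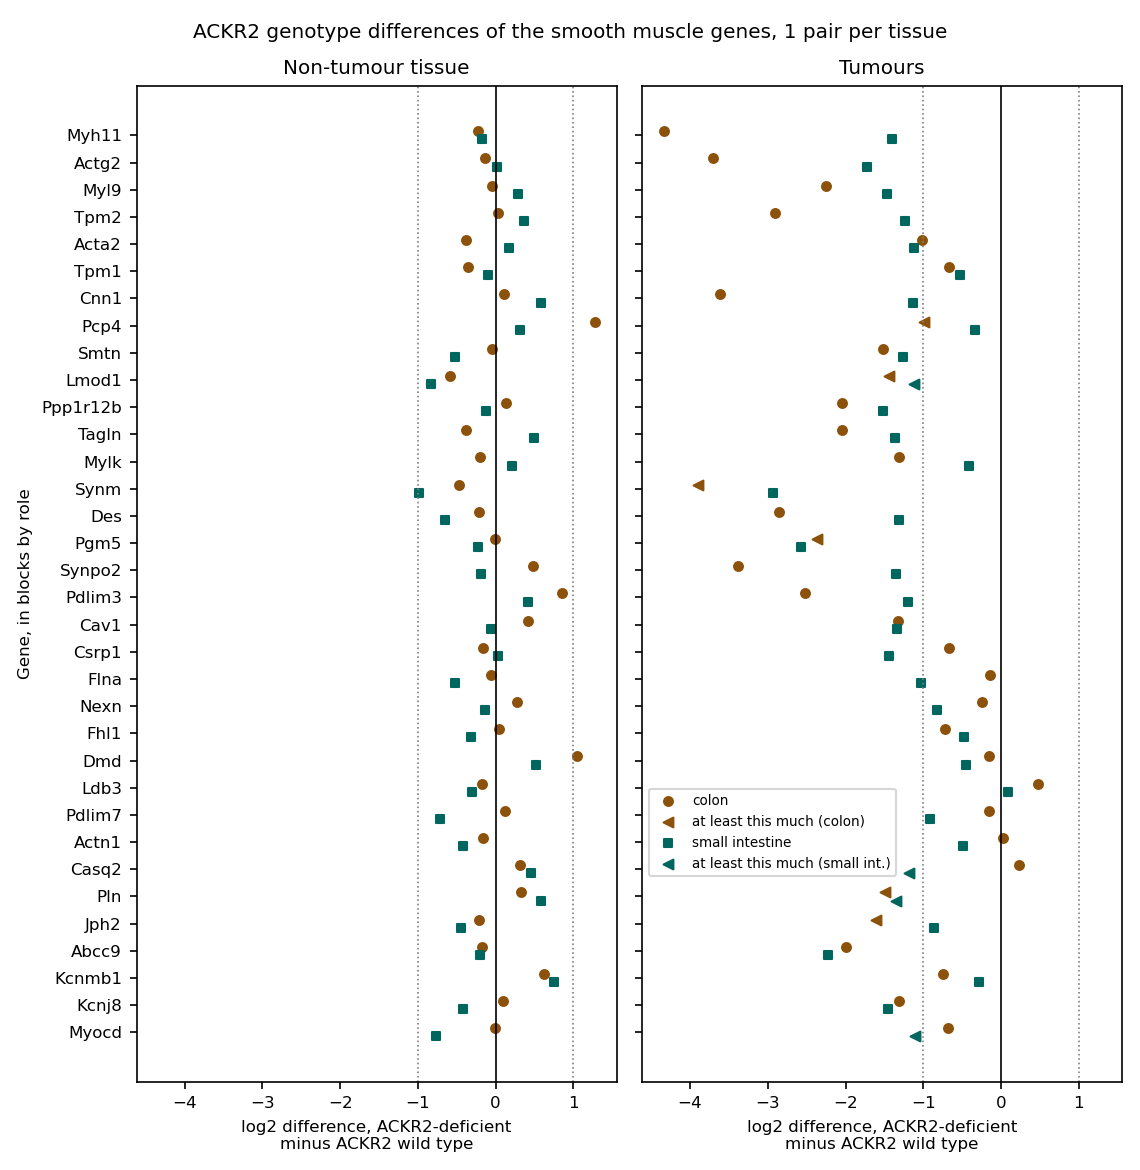
Log2 difference between ACKR2-deficient and ACKR2 wild-type arrays (horizontal axis) for each of the 34 genes (vertical axis, in blocks by role), in tissue without tumours (left) and in tumours (right), 1 point per tissue; triangles are lower limits where the ACKR2-/-ApcMin/+ signal was below the floor, and dotted lines mark 2-fold. Points in the left panel centre on medians of -0.03 in colon and -0.14 in small intestine, and those in the right panel on -1.38 and -1.19.

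Other properties of the arrays moved with ACKR2 genotype or with tumour status. Array medians were 85.2 to 102.8 on the 4 ACKR2-deficient arrays and 115.2 to 132.7 on the other arrays, which do not overlap. The part of this offset in the differences was not tested. Xist, which is made from the inactive X chromosome of females, had signals of 2954 and 4827 in ApcMin/+ tumours of colon and small intestine and of 77.9 and 127 in ACKR2-/-ApcMin/+ tumours. The Y-linked Eif2s3y had 888 and 914 in the former and 1501 and 1252 in the latter. In WT colon and small intestine Xist had 9809 and 7807, and Eif2s3y 2.92 and 2.66. In ACKR2-/- colon and small intestine Xist had 4522 and 2818, and Eif2s3y 897 and 919. ACKR2 genotype and the sex makeup of the tumour pools therefore cannot be told apart. Xist was also lower, and Eif2s3y higher, in the tumours of all 4 pairs. Sex makeup thus cannot be told apart from tumour status, or from ACKR2 genotype in tissue without tumours. The ratio of the 3′ to the 5′ control probe sets of Actb, which rises as RNA is shortened, was 1.28 to 1.39 on the 4 ACKR2-deficient arrays and 1.13 to 1.17 on the other arrays. Within the former, the tissue arrays had 1.31 and 1.28 and the tumour arrays 1.39 and 1.32, in colon and small intestine. The same ratio for Gapdh was 0.740 to 0.866 on the ACKR2-deficient arrays and 0.772 to 0.952 on the others, which overlap. The part of RNA length in the differences was not tested.

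Markers of other cells of the gut wall were set beside the muscle genes. A wider list of muscle contraction and adhesion genes had 52 tested. Of these, 33 fell in tumours over both tissues by limma and 4 rose, against 11.9% and 13.1% of all genes. The median of the list was -0.80. The lowest were Ppp1r14a, an inhibitor of myosin phosphatase, at -2.95 ± 0.25 (limma adjusted p 0.00191), and Hspb6, a small heat shock protein of muscle, at -2.62 ± 0.22 (limma adjusted p 0.00186). The highest were the non-muscle isoforms Cnn3, at 0.95 ± 0.15 (limma adjusted p 0.00908), and Tpm4, at 0.80 ± 0.10 (limma adjusted p 0.00588). Cnn3 had signals of 4201, 3801, 8164 and 12625 in colon and of 3794, 4337, 6109 and 5822 in small intestine, so tumour arrays were the higher ones in each segment. Of the calponins and tropomyosins on both lists, named together after their values were seen, Cnn1, Tpm1 and Tpm2 fell, Cnn3, Tpm4 and Tpm3 (0.50 ± 0.11, limma adjusted p 0.0235) rose, and Cnn2 (0.36 ± 0.12, limma adjusted p 0.0676) did not pass. With quantile normalization and with median centring these directions and calls were the same. This wider list had a median of -0.33 for the ACKR2 difference in tumours.

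Of 10 tested pericyte markers, 6 fell in tumours, with a median of -1.13. Over all genes tested, 11.9% fell and 13.1% rose, the shares to set beside the counts of this paragraph. Des, Kcnj8 and Abcc9, 3 of the 6, are among the 34 genes and enter the counts, medians and sums. Des alone had 10477 of the 23648 summed in WT colon. Of the others, listed in full after their values were seen, Rgs5, Mcam (-1.49) and Cspg4 (-0.99) fell. Ndufa4l2 (-0.27), Cox4i2 (-0.26), Notch3 (-0.07) and Pdgfrb did not pass. The summed signal of the list ran from 18458 to 23648 in tissue without tumours. It was 8694 to 9704 in ApcMin/+ tumours and 3124 to 3356 in ACKR2-/-ApcMin/+ tumours. Rgs5, a regulator of G-protein signalling in pericytes, had signals of 8178, 8194, 4672 and 1438 in colon and of 10775, 15952, 4930 and 1930 in small intestine. In each segment it was lowest in ACKR2-/-ApcMin/+ tumours and next lowest in ApcMin/+ tumours, and its log2 difference between tumours and tissue was -1.87 ± 0.13 (limma adjusted p 0.00134). Pdgfrb, a receptor of pericytes and fibroblasts, was at -0.03 ± 0.19 (limma adjusted p 0.928). Of 10 fibroblast markers 5 fell and 0 rose, with a median of -0.74, and their sums were 40563 and 20242 in ApcMin/+ tumours and 23429 and 6241 in ACKR2-/-ApcMin/+ tumours of colon and small intestine. Of 8 endothelial markers 1 fell, near the share of all genes (11.9%), with a median of -0.24. Of 14 markers of enteric neurons and glia 9 fell, with a median of -0.79. The 8 epithelial markers had a median of -0.13, with 0 lower and 1 higher, the latter near the share of all genes (13.1%). For the ACKR2 difference in tumours the medians were -1.13 for pericytes, -1.14 for fibroblasts, -0.97 for endothelium, -0.32 for neurons and glia and 0.02 for epithelium, against -1.30 for the 34 muscle genes. In ACKR2-/- against WT tissue without tumours the endothelial and fibroblast markers had medians of -0.75 and -0.58, where the median of the muscle genes was -0.09. The part of these cell types in the differences of the muscle genes was not tested.

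**Figure D5:**
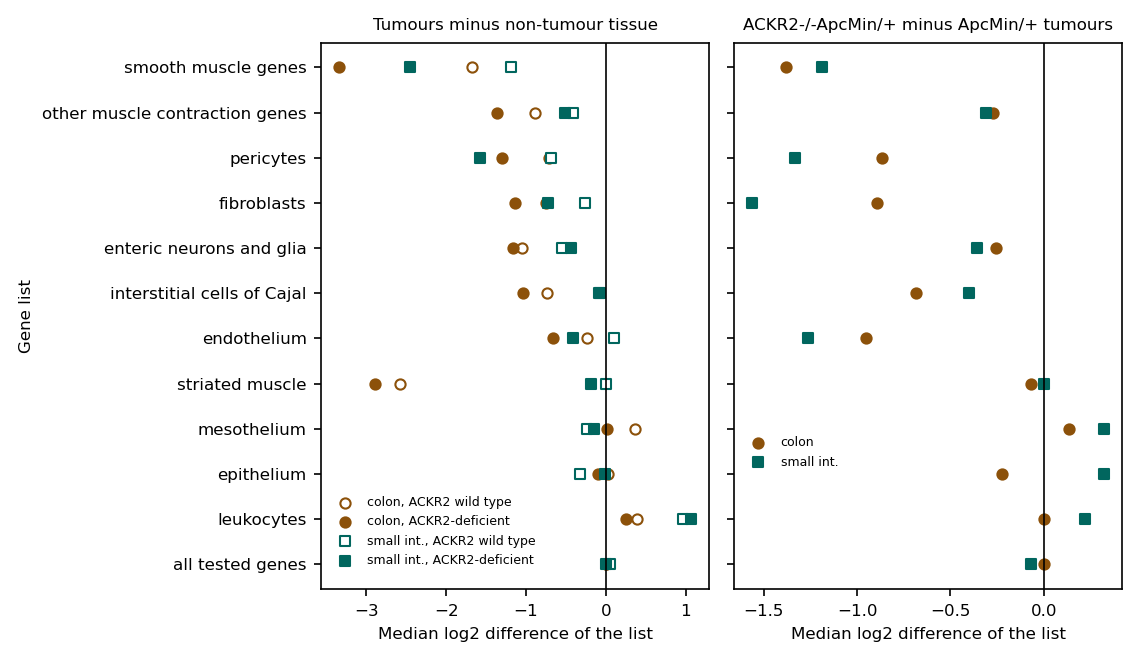
Median log2 difference of each gene list (vertical axis) for single pairs of arrays, tumours minus tissue without tumours (left) and ACKR2-/-ApcMin/+ minus ApcMin/+ tumours (right); brown circles are colon, green squares small intestine, and filled symbols on the left are the ACKR2-deficient pairs. The smooth muscle genes have medians of -1.68 and -3.34 in the colon pairs and -1.19 and -2.45 in the small-intestinal pairs on the left, and all tested genes lie near 0.

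Genes outside the list with the same course over the 8 arrays were ranked by Pearson correlation with the median profile of the 34, among 2843 genes with a log2 range of at least 2. This describes 8 arrays that share tissue and tumour status. Of the 30 muscle genes in that ranking, which formed the profile, 25 had r of at least 0.9, as did 6.61% of all 2843. The 10 nearest other genes were Lims2 (0.995), an adaptor of integrin adhesions, Gucy1a1 (0.995), a subunit of the nitric oxide receptor guanylate cyclase that is also on the wider muscle list, Sparcl1, a matrix protein (0.993), and Tns1, tensin 1 (0.991), followed by Tgfbr3, Sspn, Mrvi1, Tspan2, Akap6 and Fxyd1 with r down to 0.981. The lowest r among the muscle genes was that of Fhl1, 0.669.

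Other probe sets of the same genes were compared with those used. Of 37 others, 35 were above the floor on at least 2 arrays, in 20 genes, and 33 had a mean tumour difference in the same direction as the probe set used. The 2 that went the other way belonged to Actn1 and Pdlim7, both of which did not pass in the fit.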

How the data were processed

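Total RNA of each genotype and tissue was pooled, extracted with Trizol and RNeasy columns, and biotin-labelled cRNA was made with the Affymetrix 3′ IVT Express reagents, per the labels' protocols. The deposited values are MAS5 intensity values on a linear scale, for which the submitters' processing notes name MAS5 and Partek; the trimmed mean was 500 on every array. Probe sets were named through the platform annotation table. Of 45101 probe sets, 64 controls were left out, and 34945 had 1 gene, 932 several and 9160 none. Signals under 64.1, the median of the arrays' 40th percentiles, were set to that floor, and log2 was taken. Genes above it on at least 2 of 8 arrays were tested in limma 3.58.1 (R 4.3.3) with a mean for each tissue with and without tumours (4 terms) and an ACKR2 term each for tumours and for tissue without them, common to both gut segments, leaving 2 residual degrees of freedom beside 4.12 prior ones (trend). Tests were two-sided; calls used a Benjamini-Hochberg adjusted p under 0.05. P-values describe the spread between these arrays, not animals, and the number of arrays limits precision. The procedure was checked on simulated arrays. Alternatives were other floors, filters, normalizations, probe set rules, an additive model and each array left out. All 34 muscle genes, 2 extremes of each other list at each end, and the 10 most similar genes were named, with those shared by lists counted in each. Members and lists were chosen with earlier results of these data known.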

Additional observations from a re-analysis of the deposited data

Results flagged for a closer look

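Ano1, the chloride channel of interstitial cells of Cajal, the pacemaker cells between the muscle layers, had tumour differences that differed between the segments. Its signals were 5385 and 6803 in WT and ACKR2-/- colon, 3234 and 3305 in ApcMin/+ and ACKR2-/-ApcMin/+ colon tumours, 262 and 151 in small intestine and 1012 and 830 in small-intestinal tumours. The log2 difference between tumours and tissue was -0.89 ± 0.28 in colon (limma adjusted p 0.0664) and 2.20 ± 0.28 in small intestine (limma adjusted p 0.0157). Colon minus small intestine was -3.09 ± 0.39 (limma adjusted p 0.0252). Of the leukocyte markers, the B cell receptor component Cd79a had a colon minus small intestine difference of -3.36 ± 0.50 (limma adjusted p 0.0364). Lyz2, a lysozyme of macrophages on the same list, named after its values were seen, differed the other way, by 1.40 ± 0.20 (limma adjusted p 0.0334). By the same test 0 of the 34 smooth muscle genes passed.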

How the results depend on the processing

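With each array left out in turn, 1 residual degree of freedom remained. Limma then lost its calls among the 34 genes in every comparison, and over both tissues among all tested genes. Median differences then ranged from -2.35 to -2.03 for tumours over both tissues, -2.79 to -2.31 in colon, -1.96 to -1.44 in small intestine, -0.98 to -0.58 for colon minus small intestine, 0.97 to 1.05 between tissues, -0.013 to 0.37 between tumours, -0.14 to -0.03 for ACKR2 loss in tissue and -1.38 to -1.19 in tumours. Genes at least 2-fold lower ranged from 19 to 27, 28 to 31 and 20 to 29 for the 3 tumour comparisons and from 19 to 23 for ACKR2 loss in tumours; between tumours, 1 to 6 were lower and 2 to 7 higher, between tissues 1 was lower and 12 to 17 were higher, and for ACKR2 loss in tissue 0 to 2 were higher.

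Without a filter limma called 4 genes lower in tumours over both tissues, 1 in colon and 0 in small intestine. In colon tissue it called 1 higher and 0 lower, with 0 in either direction between tumours and 0 for ACKR2 loss. Of all 18193 genes it called 190 over both tissues, 90 in colon and 29 in small intestine. Between tissues it called 262 of them, between tumours 33, and for ACKR2 loss 0 in tissue and 2 in tumours. With a floor at the 60th percentile the medians were -1.72 over both tissues, -2.10 in colon and -0.94 for ACKR2 loss in tumours, with 0 limma calls there. Between tumours limma called 3 genes, 1 of them lower, against 1467 of all 11124 genes in either direction. By fold, 0 genes were 2-fold lower there. With a filter on all 8 arrays, which kept 26 of the genes, the medians were -1.92, -2.22 and, for colon minus small intestine, -0.69. By fold, 12 genes were 2-fold lower over both tissues and 13 in small intestine. Limma called 6 higher between tumours, with 0 at 2-fold lower, against 1631 of all 10659 genes in either direction. For ACKR2 loss in tumours it called 10, against 80 of all 10659 genes. With the mean of probe sets the medians were -1.91, -2.27 and -1.07 (ACKR2 loss in tumours). Limma called 1 lower between tumours (1497 of all 14056 genes in either direction) and 0 for ACKR2 loss. By fold, 1 gene was 2-fold higher between tumours and 0 were 2-fold lower between tissues. For ACKR2 loss 1 was 2-fold lower in tissue and 12 in tumours. Median centring gave 8 higher between tissues (2551 of all 14098 genes in either direction). Between tumours it gave 1 lower by limma (1879 in either direction) and 0 by fold. For ACKR2 loss in tissue it gave 6 higher by limma, 1 higher by fold and a median of 0.46. Limma there called 3803 of all 14098 genes in either direction. For ACKR2 loss in tumours it gave 0 calls with a median of -1.07, where the median of all genes moved to 0.20. Quantile normalization gave 1 gene for colon minus small intestine (284 of all 14068 in either direction) and 5 higher between tumours (1970 of all). It gave 0 for ACKR2 loss in tumours (1 of all). No floor gave 6 there (36 of all 14008 genes), the additive model 30 over both tissues (1609 of 14027), and leaving out both WT arrays 29 at 2-fold (2.19%). The cause of these changes was not tested, except that fewer genes were testable under the stricter filter.

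Signs turned for Actn1, to -0.11 over both tissues and -0.28 in colon with the mean of probe sets, with a range of -0.073 to 0.45 in colon when single arrays were left out. They turned for Pdlim7, to -0.087 in colon with the mean of probe sets, with ranges of -0.055 to 0.36 over both tissues, -0.39 to 0.45 in colon and -0.14 to 0.70 in small intestine when single arrays were left out. The labels give no replicate numbers, so no fit with a replicate number as a block was made; the pairs of arrays were matched by segment and genotype. Signals near the floor limit Myocd, Kcnmb1 and the lowest tumour values.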

Other observations

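Striated muscle genes were measured on the colon arrays and in part only on those of small intestine. Of 10 tested, 8 fell in tumours over both tissues by limma, against 11.9% of all genes. The list had a median log2 difference of -2.89 in colon and 0.00 in small intestine. Ckm, muscle creatine kinase, had signals of 1221 in WT and 1657 in ACKR2-/- colon and of 442 and 686 in small intestine, against 110 and 157 in ApcMin/+ tumours of colon and small intestine. Its difference was -3.26 ± 0.19 (limma adjusted p 0.000827), and that of Acta1, skeletal actin, -2.54 ± 0.21 (limma adjusted p 0.00166). The fast troponins Tnnc2, Tnni2 and Tnnt3, the oxygen store Mb and the myosin Myh1 were chosen after their values were seen. They were below the floor on all 4 small-intestinal arrays, so no fall could be measured there. Their calls over both tissues therefore come from colon alone, and the median of 0.00 in small intestine is that of floored values. In colon tissue Tnnc2 had signals of 1275 and 1236, and it was below 64.1 in both colon tumours. For ACKR2 loss in tumours the list had a median of -0.03. However, Tnnc2, Tnnt3, Mb and the myosins Myh1 and Myh7 were below the floor on all 4 tumour arrays. No ACKR2 difference could be measured for them, so this median cannot show whether the list changed. The part of striated muscle in the colon values of the smooth muscle genes was not tested.

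The list of markers for interstitial cells of Cajal was short, and not all of its genes are particular to these cells. Of 5 tested, 2 were lower in tumours (11.9% of all genes). They were Cd34 at -1.48 ± 0.22 and Thbs4 at -1.11 ± 0.19 (limma adjusted p 0.00801 and 0.0127). Prkcq at -0.08 ± 0.15, Ano1 at 0.66 ± 0.20 and Kit at -0.26 ± 0.17 did not pass (limma adjusted p 0.737, 0.0557 and 0.300). Kit was named after its values were seen. Thbs4 was below the floor on all 4 small-intestinal arrays, so its fall came from colon alone. The part of interstitial cells of Cajal in the falls of Cd34 and Thbs4 was not tested. Of 7 leukocyte markers, 5 rose in tumours and 0 fell, and of 4 mesothelial markers 1 fell and 1 rose. Over all genes tested, 13.1% rose and 11.9% fell.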
